A study of Mus musculus with 24 samples.

Results

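Type I interferon antiviral response genes were followed as a set of 40 genes across 24 RNA sequencing libraries of mouse CD4 T cells. The members were given by symbol, as genes known to be induced by type I interferons. All 40 were among the 23420 genes of the deposited count tables. All 40 also passed the filter on low counts, which left 12584 genes for testing. The cells came from mice labelled OT2Nur77GFP+/-, on a C57BL/6 background. These mice carry the OT-II transgenes, so that their CD4 T cells mostly recognise a single peptide of ovalbumin. They also carry a bacterial artificial chromosome transgene in which the Nr4a1 (Nur77) promoter drives a green fluorescent protein joined to Cre. All 4 groups share this genotype. Reactivated TH1 cells had been differentiated for 5 days and then restimulated for 6 hours with antigen-pulsed macrophages. TH1 effector cells had the same 5 days of differentiation and no restimulation. Activated naive cells had received a 6 hours stimulus that the labels do not name, and naive cells had been isolated from spleens. Each group has 6 libraries, numbered 1 to 6 and titled M1 to M6, with the same titles in all 4 groups. No group of TH1 cells kept with macrophages that carried no antigen was among the samples, so contact with macrophages and contact with antigen cannot be told apart in the reactivated cells. The labels give no age of the mice and do not tie the 6 libraries of a group to separate mice, so p-values cover only the spread among libraries.

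Type I interferons, the interferon alphas and interferon beta, bind a receptor made of the IFNAR1 and IFNAR2 chains. The kinases JAK1 and TYK2 on its cytoplasmic tails start a signal that ends in ISGF3, a complex of transcription factors that holds IRF9. This complex binds the interferon-stimulated response element (ISRE) in the promoters of antiviral genes. Interferon gamma acts through a separate receptor and mainly through a different element, the gamma-activated sequence (GAS). Resting T cells are known to hold some antiviral genes at a basal level, set by small amounts of interferon in the tissue.

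Promoter sequences of 6 members are shown because the levels of these genes are described below and because their elements differ in number and letters. They are the bases from -170 to -31 before the annotated start, read from the RefSeq promoter table (build GRCm38.p6) and written 5′ to 3′ along the strand of the gene. Capitals mark letters that match the ISRE core, which was searched as GAAA, then any 2 bases, then GAAA again, or as its reverse complement, TTTC, any 2 bases and TTTC. Where matches overlap, the capitals run on.

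Isg15 (chr4:156200849-156200988, minus strand): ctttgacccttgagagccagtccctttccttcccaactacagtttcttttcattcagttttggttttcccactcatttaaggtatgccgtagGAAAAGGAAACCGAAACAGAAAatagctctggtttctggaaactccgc
Ifit1 (chr19:34640719-34640858, plus strand): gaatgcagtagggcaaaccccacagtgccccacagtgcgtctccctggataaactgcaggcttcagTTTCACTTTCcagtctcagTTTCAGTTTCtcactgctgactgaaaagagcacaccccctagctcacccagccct
Ifit3 (chr19:34583359-34583498, plus strand): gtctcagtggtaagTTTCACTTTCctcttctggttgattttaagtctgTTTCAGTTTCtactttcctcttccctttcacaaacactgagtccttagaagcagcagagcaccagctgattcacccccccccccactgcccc
Oas3 (chr5:120777690-120777829, minus strand): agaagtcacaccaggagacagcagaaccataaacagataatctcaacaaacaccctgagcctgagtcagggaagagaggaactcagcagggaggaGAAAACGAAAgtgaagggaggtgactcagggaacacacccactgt
Rsad2 (chr12:26456483-26456622, minus strand): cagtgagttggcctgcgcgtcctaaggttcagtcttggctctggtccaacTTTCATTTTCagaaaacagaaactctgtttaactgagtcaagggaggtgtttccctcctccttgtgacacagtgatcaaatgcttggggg
Bst2 (chr8:71537503-71537642, minus strand): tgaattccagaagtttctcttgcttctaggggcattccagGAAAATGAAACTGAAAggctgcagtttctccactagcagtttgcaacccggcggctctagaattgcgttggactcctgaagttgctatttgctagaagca

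Of the 40 members, 29 had a window in that table, covering 250 bases before to 50 bases after the start. The others were Mx1, Mx2, Oas2, Dhx58, Usp18, Rtp4, Ifi27l2a, Zbp1, Parp9, Parp14 and Tor3a. At least 1 ISRE match on either strand was present in 12 of these 29 members (41.4%). The same letters were present in 3.99% of the 27025 genes with a window, and in 3.44% of all 32851 windows. The GAS letters TTCNNNGAA, which read the same on both strands, were present in 7 of the 29 members (24.1%), against 9.55% of genes and 8.3% of windows. In Bst2 a GAS match at -136 to -128 overlapped the first ISRE match at -130 to -121. Among members that are not printed, Ddx60 held GAAACCGAAA at -53 to -44 and again at -19 to -10. Ifitm3 held its ISRE matches after the start, at 2 to 11 and at 19 to 28. A match is a description of letters and not a binding site. Against TH1 effector cells, 8 of the 12 members with an ISRE match rose in reactivated TH1 cells and 2 fell, and 9 of the 17 members without one rose and 1 fell, where 39.9% of all tested genes rose and 39.8% fell. Against naive cells, 8 of the 12 fell in activated naive cells and 13 of the 17 without a match fell, where 40.5% of all genes fell.

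Library totals over genes ran between 18457653 and 34262645 counts. Each group was sequenced in 2 runs, with numbers 1 to 3 in the first and 4 to 6 in the second. The summed level of 8 T cell markers, in CPM, the counts scaled to a common library size, was 3090 to 3620 CPM in reactivated TH1, 3025 to 3467 CPM in TH1 effector, 4102 to 5034 CPM in activated naive and 3970 to 4325 CPM in naive libraries. The sum of 17 macrophage markers was 52.8 to 63.6 CPM in reactivated TH1, 59.1 to 71.5 CPM in TH1 effector, 42.3 to 51.5 CPM in activated naive and 157.7 to 193 CPM in naive libraries. Of these 17 markers, Ctss alone had a called change between groups at 10 CPM or more. Ctss fell in TH1 effector and activated naive against naive cells, and in reactivated TH1 against TH1 effector cells. Marco alone was at 0 in reactivated TH1 libraries, and 8 markers were at 0 in TH1 effector libraries, among them Csf1r and Emr1. In naive libraries 7 were at 0, among them Cd14 and C1qa. The sums were not tested as a measure of macrophage RNA. Lyz2, a macrophage and granulocyte lysozyme, had 4.58 to 7.23 CPM in reactivated TH1 libraries and 0 to 0.137 CPM in TH1 effector libraries. The part of the macrophage transcripts in the levels of reactivated TH1 libraries was not tested. Siglech, the defining receptor of plasmacytoid dendritic cells, which are the strongest producers of type I interferon, was at 0 in activated naive and TH1 effector libraries and at 0 to 0.0632 CPM in reactivated TH1 and 0 to 0.0356 CPM in naive libraries.

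The set stood highest in naive cells. The mean log2 CPM over the 40 members was 5.31 ± 0.57 in reactivated TH1, 4.14 ± 0.32 in TH1 effector, 4.64 ± 1.05 in activated naive and 6.42 ± 0.15 in naive libraries (SD, n = 6 each). No library of the other 3 groups reached the lowest naive library, and those 3 groups overlapped with each other. Over numbers 1 to 4 alone the mean was 5.01 ± 0.42 in reactivated TH1, 3.97 ± 0.20 in TH1 effector, 3.98 ± 0.30 in activated naive and 6.48 ± 0.11 in naive libraries (SD, n = 4 each), and the means of activated naive and TH1 effector libraries then differed by less than either SD. The mean over all tested genes stayed between 3.64 and 4.23 in the 24 libraries. In these bulk libraries fewer cells that express a gene and less of its RNA per cell cannot be told apart.

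**Figure D1:**
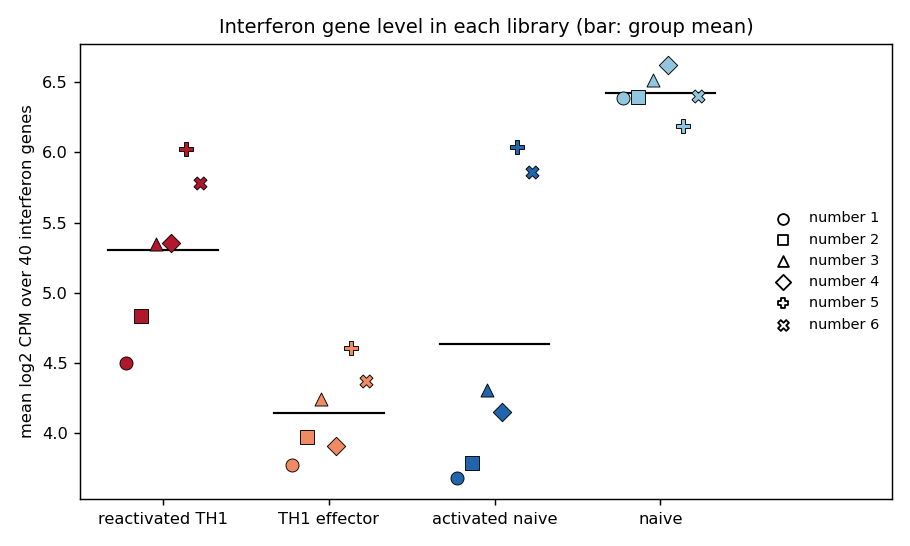
Mean log2 CPM over the 40 interferon genes (y axis) in each library of the 4 groups (x axis), with marker shapes for the library numbers and a bar at each group mean. Naive libraries lie between 6.19 and 6.63, and activated naive numbers 5 and 6 at 6.04 and 5.86 lie above the other 4 libraries of that group.

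Activated naive libraries were not at one level. The mean log2 CPM over the members was 3.68, 3.78, 4.31 and 4.15 in numbers 1 to 4, and 6.04 and 5.86 in numbers 5 and 6. For all 40 members the 2 highest activated naive libraries were numbers 5 and 6, which was so for 8.94% of all tested genes. Numbers 5 and 6 were also the 2 highest libraries for 38 members in reactivated TH1 cells (16.3% of all genes) and for 30 members in TH1 effector cells (18.4% of all genes). In naive cells they were the 2 highest for none (8.52% of all genes). Number 5 was the lowest naive library for 22 members (24.8% of all genes). Within activated naive libraries the members had a median SD of 1.03 in log2 CPM, against 0.182 for all genes. That SD was 0.588 for members and 0.172 for all genes in reactivated TH1, 0.372 and 0.180 in TH1 effector, and 0.203 and 0.147 in naive libraries. Macrophage markers summed to 50.4 and 51.5 CPM in activated naive numbers 5 and 6 and to 42.3 to 49.96 CPM in the other 4. The 5 plasmacytoid dendritic cell markers other than the member Bst2 summed to 17.0 and 16.5 CPM in numbers 5 and 6 and to 11.4 to 14.4 CPM in the other 4. Of these 5, Siglech and Klk1 were at 0 in all activated naive libraries. Only Tcf4 and Ccr9 passed the filter on low counts. With Siglech at 0, that sum is no measure of plasmacytoid dendritic cells. The part of these markers in the spread was not tested. For each comparison with activated naive cells the counts of called members and the median are therefore given with and without numbers 5 and 6, as are most fold changes of single members, and levels are given over all 6 libraries unless stated. Numbers 5 and 6 were known beforehand to be high for an interferon list, so adjusted p-values without them are descriptive only.

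**Figure D2:**
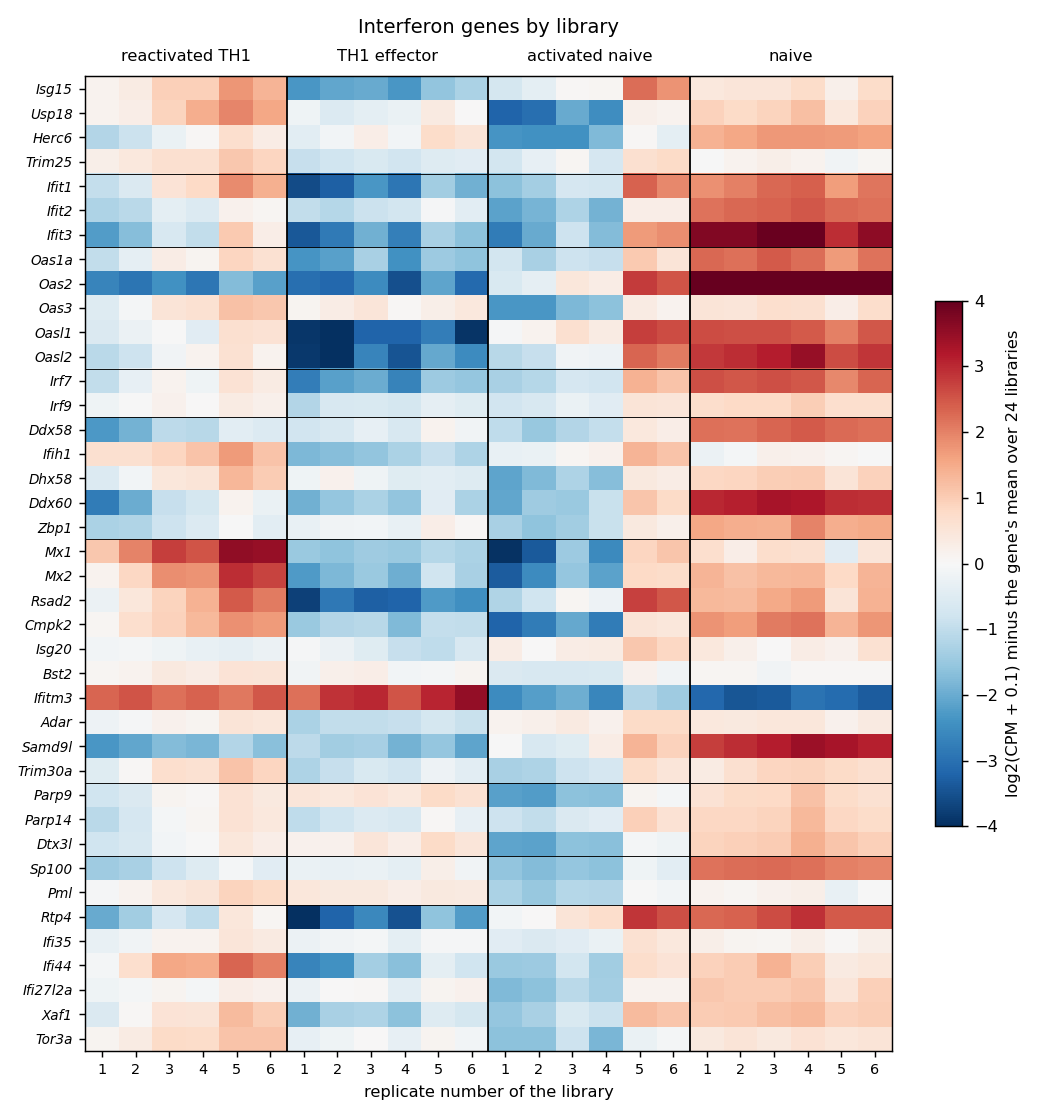
Level of each of the 40 members (rows, grouped by role) in each of the 24 libraries (columns, by group and library number) as log2(CPM + 0.1) minus the mean of that gene over all libraries, with red above and blue below that mean. Oas2, Ifit3 and Samd9l stand high in the naive libraries, Mx1 stands high in the reactivated TH1 libraries, Ifitm3 stands high in both TH1 groups, and activated naive numbers 5 and 6 differ from the columns beside them.

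TH1 effector cells held less of most antiviral transcripts than naive cells. Of the 40 members 35 fell, 1 rose and 4 were not called (edgeR quasi-likelihood test, adjusted p under 0.05 by the Benjamini-Hochberg method over 12584 genes, as in all tests below). Over all genes 40.3% fell and 44.6% rose, 84.9% in either direction. At least 2-fold, 30 members fell and 1 rose, against 16.4% and 25.2% of all genes. For 35 members every TH1 effector library was below every naive library, against 32.1% of all genes. The median log2 fold change was -1.79, and 0.06 over all genes. Run by run it was -1.85 for numbers 1 to 3 and -1.56 for numbers 4 to 6. Without numbers 5 and 6, 36 members fell and 1 rose (40.6% and 42.3% of all genes). In the second run alone 29 fell (35.8% of all genes), and Mx1, Usp18, Ifi35, Dtx3l, Trim25 and Tor3a were no longer called. The 4 members not called were Oas3, Bst2, Parp9 and Pml, and the one that rose was Ifitm3.

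Stimulation of naive cells also came with lower levels of most members. In activated naive against naive cells 31 members fell, 1 rose and 8 were not called, and over all genes 40.5% fell and 41.3% rose, 81.9% in either direction. At least 2-fold, 28 members fell and 1 rose, against 23.2% and 21.2% of all genes. For 20 members every activated naive library lay below every naive library (33% of all genes). The median log2 fold change was -1.63, and 0.00 over all genes. It depended on the run and on numbers 5 and 6. In the first run alone 35 members fell and 1 rose, with a median of -2.64 (38.1% of all genes fell and 38.1% rose). In the second run alone 16 fell and 3 rose, with a median of -0.78 (35.9% of all genes fell and 38.5% rose). The count of falls in the second run was near the share of all genes. Without numbers 5 and 6, 37 fell and 1 rose, with a median of -2.63 (40.2% of all genes fell and 38.8% rose). The members that fell in all 6 libraries together but were not called in the second run alone were Ifit1, Mx2, Oas3, Oasl1, Oasl2, Irf9, Dhx58, Usp18, Rtp4, Bst2, Ifi44, Xaf1, Parp14, Trim30a and Pml. Library by library, the activated naive library of number 5 was above its naive counterpart for 19 members (48.3% of all genes). That of number 6 was above for 13 members (50.7%), and those of numbers 1 to 4 for 1 to 3 members (48.3% to 49.3%). For number 5 the share of members was near that of all genes.

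Restimulation of TH1 cells came with higher levels of 22 members. Against TH1 effector cells 22 rose, 4 fell and 14 were not called in reactivated TH1 cells, and over all genes 39.9% rose and 39.8% fell, 79.7% in either direction. At least 2-fold, 19 members rose and none fell (13.3% and 19.5% of all genes), the largest fall being 0.78 in log2. With no such limit 6 members fell by DESeq2. For 16 members every reactivated TH1 library was above every TH1 effector library, against 30% of all genes. The median log2 fold change was 0.80, and 0.00 over all genes. It was 0.66 in the first run alone, with 20 members higher and 8 lower (36.1% and 37.5% of all genes). In the second run it was 1.17, with 24 higher and 1 lower (35% and 34.2% of all genes). Without numbers 5 and 6, 21 rose and 8 fell (38.1% and 39% of all genes). The mean log2 CPM over the set was higher in the reactivated TH1 library of every number, by 0.73 to 1.45.

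The change on stimulation differed between TH1 and naive cells for 39 members. The stimulus may differ too, so this difference cannot be assigned to the kind of cell alone. The difference, the log2 fold change of reactivated TH1 over TH1 effector cells minus that of activated naive over naive cells, was above 0 and called for 38 members, below 0 and called for Ifitm3, and not called for Isg20. Over all genes 34.3% were called above 0 and 33.7% below, 68% in either direction. At least 2-fold, 35 members were above and 1 below (15% and 15.4% of all genes). The median difference was 2.56, and 0.00 over all genes. In the first run 38 members were called above 0 (28.3% of all genes) and in the second 31 (26.3%). Without numbers 5 and 6 there were 38 (32.5%), with a median of 3.03. Each time 1 member was called below 0 (29.2%, 27% and 30.9% of all genes). In the second run Oas3, Ifi35, Ifi27l2a, Parp9, Parp14, Trim25 and Pml were no longer called.

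**Figure D3:**
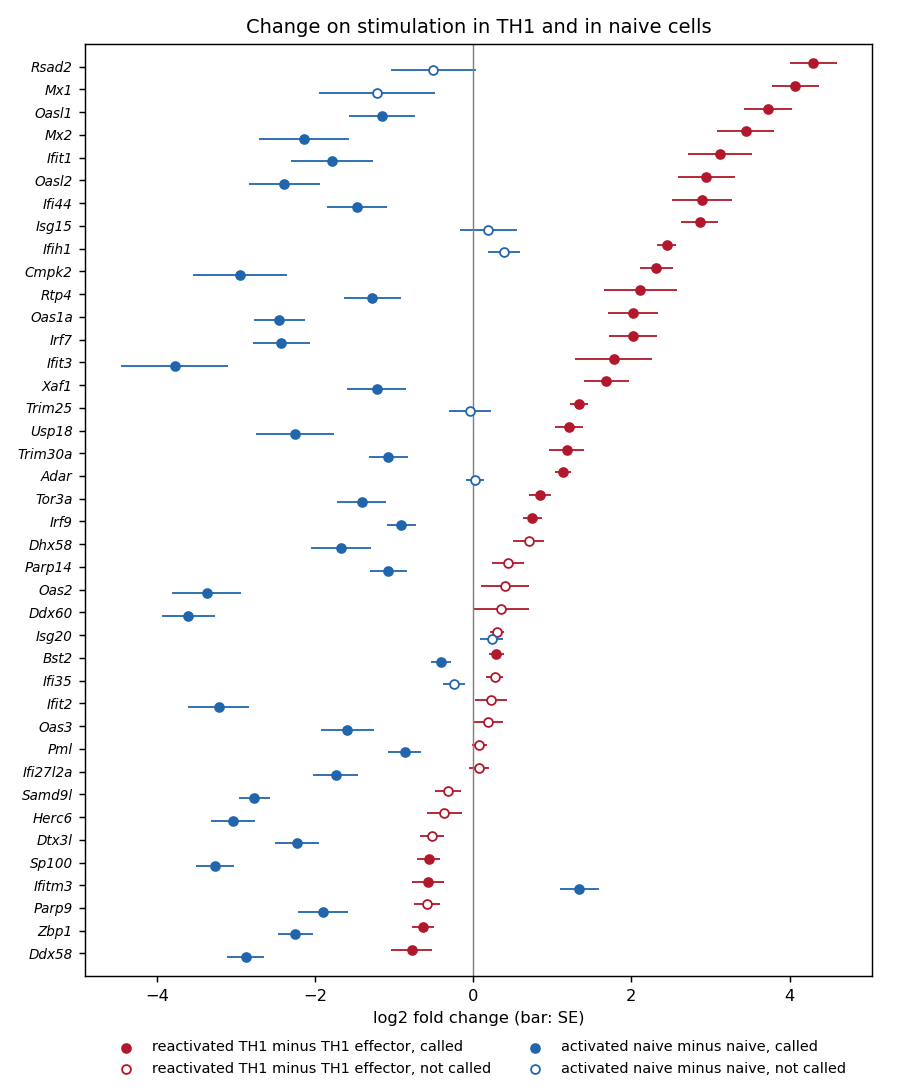
Log2 fold change on stimulation (x axis) of each member (y axis), with red for reactivated TH1 minus TH1 effector cells, blue for activated naive minus naive cells, bars for the SE, and filled symbols for adjusted p under 0.05. The red point lies to the right of the blue one for 39 members, and Ifitm3 is the exception.

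The 2 stimulated groups differed less evenly from each other. Against activated naive cells 18 members rose in reactivated TH1 cells, 7 fell and 15 were not called (43.4% of all genes were higher, 36.4% lower and 79.8% either). At least 2-fold, 13 members rose and 4 fell, against 23% and 11% of all genes. Every reactivated TH1 library was above every activated naive library for 2 members, Ifitm3 and Tor3a (33.7% of all genes), and below for 3, Isg20, Oas2 and Samd9l (26.5% of all genes). The median log2 fold change was 0.39, and 0.08 over all genes. In the first run 27 members rose and 6 fell, with a median of 0.84 (40.6% of all genes rose and 32.7% fell). In the second 10 rose and 6 fell, with a median of 0.17 (38.5% of all genes rose and 31.7% fell). Without numbers 5 and 6, 29 rose and 6 fell, with a median of 0.85 (40.9% of all genes rose and 36.3% fell).

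Genes of the ISG15 pathway tag proteins with the ubiquitin-like modifier ISG15 or remove it. Isg15 itself (chromosome 4, 156199424 to 156200818, GRCm38) had 25.2, 44.5 and 77.8 CPM as its lowest, median and highest value in reactivated TH1 libraries, and 4.47, 5.51 and 9.45 CPM in TH1 effector libraries. It had 14.0, 23.8 and 108 CPM in activated naive libraries, and 26.4, 32.1 and 38.3 CPM in naive libraries. The TH1 groups did not overlap, and the activated naive libraries lay on both sides of the naive ones. Isg15 rose 7.27-fold in reactivated over TH1 effector cells (log2 fold change 2.86, SE 0.24, adjusted p = 3.71e-07) and fell 5.55-fold in TH1 effector against naive cells (adjusted p = 2.17e-06). SE values refer to a difference of 2 group means in log2 CPM and use the variation of libraries of the same group and run. Between activated naive and naive cells the log2 fold change was 0.19 (SE 0.36, adjusted p = 0.614), and -0.78 without numbers 5 and 6 (adjusted p = 0.000701).

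Usp18, the protease that removes ISG15 and blocks signalling at IFNAR2, averaged 77.5 ± 37.1 CPM in reactivated TH1 and 30.7 ± 7.15 CPM in TH1 effector libraries (SD, n = 6 each). It averaged 16.3 ± 16.8 CPM in activated naive and 62.1 ± 10.5 CPM in naive libraries. Usp18 rose 2.32-fold in reactivated over TH1 effector cells (adjusted p = 0.00882), and reactivated TH1 and TH1 effector libraries overlapped. Herc6, the mouse ligase that attaches ISG15, averaged 34.8 ± 15.7 CPM in reactivated TH1, 42.3 ± 12.9 CPM in TH1 effector, 16.2 ± 13.4 CPM in activated naive and 114 ± 9.85 CPM in naive libraries. It fell 8.23-fold in activated naive against naive cells (adjusted p = 1.58e-08; 14.9-fold without numbers 5 and 6) and was not called between the TH1 groups (log2 fold change -0.36, adjusted p = 0.261). Without numbers 5 and 6 Herc6 was called lower there (log2 fold change -0.47, adjusted p = 0.0404). Of its exon bases 13.7% are shared with the transcript Gm45193 on the same strand. Trim25, a ubiquitin ligase of the RIG-I pathway, averaged 250 ± 52.7 CPM in reactivated TH1 and 98.3 ± 12.5 CPM in TH1 effector libraries, which did not overlap (2.52-fold, adjusted p = 2.33e-06).

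The IFIT proteins bind viral RNA that lacks the host cap pattern. Their genes lie in 1 region of chromosome 19, Ifit2 at 34550694 to 34576419, Ifit3 at 34583531 to 34588731 and Ifit1 at 34640871 to 34650009. Ifit1 had 13.0, 40.7 and 94.7 CPM (lowest, median, highest) in reactivated TH1 libraries and 2.03, 4.14 and 9.62 CPM in TH1 effector libraries. It had 8.05, 15.5 and 131 CPM in activated naive libraries and 81.8, 108 and 134 CPM in naive libraries. Every reactivated TH1 library was above every TH1 effector library, and activated naive numbers 5 and 6 reached the naive range. The log2 fold change of Ifit1 was 3.12 in reactivated over TH1 effector cells (SE 0.40, adjusted p = 3.98e-05) and -4.71 in TH1 effector against naive cells (SE 0.32, adjusted p = 2.61e-07). In activated naive against naive cells it was -1.79 (adjusted p = 0.00369), -1.23 with no term for the run (adjusted p = 0.0736), -0.42 in the second run alone (adjusted p = 0.595) and -3.24 without numbers 5 and 6.

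Ifit3 had 1.36, 3.81 and 13.8 CPM (lowest, median, highest) in reactivated TH1 libraries and 0.552, 1.32 and 2.69 CPM in TH1 effector libraries. It had 0.873, 2.86 and 24.7 CPM in activated naive libraries and 52.6, 89.0 and 105 CPM in naive libraries. Naive libraries stood above all others, and the other 3 groups overlapped. Ifit3 fell 70.0-fold in TH1 effector (adjusted p = 8.12e-08) and 13.7-fold in activated naive cells against naive cells (adjusted p = 1.05e-05). Without numbers 5 and 6 the fall of Ifit3 in activated naive cells was 48.3-fold (adjusted p = 1.59e-08). Its rise of 1.78 in log2 between the TH1 groups (SE 0.49, adjusted p = 0.0281) was lost without number 3, 5 or 6 (adjusted p = 0.0509, 0.0715 and 0.0546) and in each run alone (adjusted p = 0.0866 and 0.0709). Of the 50-base stretches of Ifit3 transcripts 51.2% occur in another gene too, mainly its copy Ifit3b, so reads may have been split or left out. Ifit2 averaged 24.3 ± 9.47 CPM in reactivated TH1, 20.5 ± 6.20 CPM in TH1 effector, 19.3 ± 15.2 CPM in activated naive and 159.4 ± 12.7 CPM in naive libraries. It was not called between the TH1 groups (log2 fold change 0.23, adjusted p = 0.503).

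**Figure D4:**
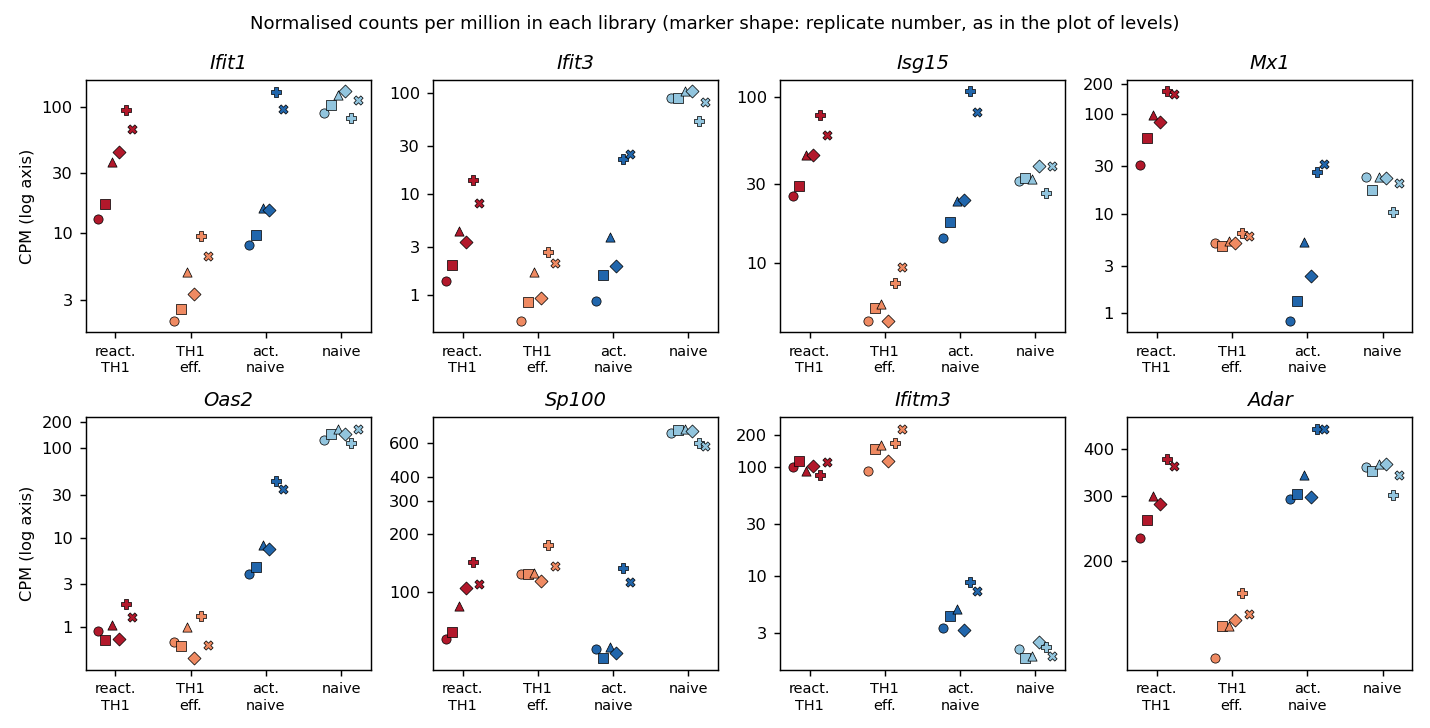
CPM of 8 members in each library (y axis, log scale; x axis, group), with marker shapes for the library numbers. Ifit1, Isg15 and Mx1 are higher in every reactivated TH1 library than in any TH1 effector library, Oas2 is at 1.78 CPM or less in both TH1 groups, and activated naive numbers 5 and 6 are the 2 highest of their group for all 8 genes.

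The 2′-5′-oligoadenylate synthetases make the second messenger that switches on RNase L, and OAS-like proteins are their relatives. Their genes lie on chromosome 5, and in reactivated over TH1 effector cells 3 of the 5 members rose. Oas2 (120730333 to 120749853) had 0.710, 0.963 and 1.78 CPM in reactivated TH1 libraries and 0.443, 0.643 and 1.32 CPM in TH1 effector libraries. It had 3.93, 7.88 and 42.9 CPM in activated naive libraries and 116, 145 and 166.7 CPM in naive libraries. The TH1 libraries overlapped with each other and lay below all libraries of both naive groups. Oas2 fell 189-fold in TH1 effector against naive cells (log2 fold change -7.57, SE 0.25, adjusted p = 3.79e-11), the largest fall of the set. It was not called between reactivated TH1 and TH1 effector cells (log2 fold change 0.40, SE 0.30, adjusted p = 0.598).

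Oasl1 (114923240 to 114937915) and Oasl2 (114896936 to 114912234) fell steeply in TH1 effector cells and rose on restimulation. Oasl1 averaged 6.46 ± 2.43 CPM in reactivated TH1, 0.479 ± 0.216 CPM in TH1 effector, 18.5 ± 17.1 CPM in activated naive and 34.4 ± 4.75 CPM in naive libraries. Every reactivated TH1 library was above every TH1 effector library for both genes. In reactivated over TH1 effector cells Oasl1 rose 13.3-fold (adjusted p = 2.08e-06) and Oasl2 rose 7.72-fold (adjusted p = 4.23e-05). In TH1 effector against naive cells Oasl1 fell 76.1-fold and Oasl2 fell 74.1-fold (adjusted p = 3.75e-10 and 7.76e-10). The fall of Oasl1 in activated naive cells, -1.15 in log2 (adjusted p = 0.00872), was lost without number 1 or 2 (adjusted p = 0.0703 and 0.0644) and in the second run alone (-0.07, adjusted p = 0.928), and was -2.31 without numbers 5 and 6 (adjusted p = 3.21e-10).

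Oas1a averaged 7.05 ± 2.95 CPM in reactivated TH1, 1.66 ± 0.585 CPM in TH1 effector, 5.65 ± 4.07 CPM in activated naive and 28.1 ± 4.53 CPM in naive libraries, and 57.6% of its 50-base stretches occur in another gene too, mainly Oas1g. It rose 4.06-fold between the TH1 groups, which did not overlap (adjusted p = 2.48e-05). Oas3 averaged 92.1 ± 38.0 CPM in reactivated TH1, 74.7 ± 8.77 CPM in TH1 effector, 34.7 ± 30.1 CPM in activated naive and 90.5 ± 9.28 CPM in naive libraries. It fell 3.01-fold in activated naive cells (adjusted p = 0.000398; 6.12-fold without numbers 5 and 6) and was called neither in TH1 effector against naive cells (log2 fold change -0.27, adjusted p = 0.466) nor between the TH1 groups (0.19, adjusted p = 0.623).

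The transcription factors IRF7 and IRF9 carry the response, IRF7 as the amplifier of interferon alpha genes and IRF9 as the DNA-binding part of ISGF3. Irf7 had 22.4, 43.9 and 66.8 CPM (lowest, median, highest) in reactivated TH1 libraries and 6.39, 10.4 and 16.3 CPM in TH1 effector libraries. It had 18.2, 27.0 and 117 CPM in activated naive libraries and 167.2, 247 and 268 CPM in naive libraries. The TH1 groups did not overlap, and naive libraries stood above all others. Irf7 rose 4.05-fold in reactivated over TH1 effector cells (log2 fold change 2.02, SE 0.30, adjusted p = 9.75e-05), and fell 23.0-fold in TH1 effector (adjusted p = 3.24e-09) and 5.38-fold in activated naive cells (adjusted p = 8.06e-06; 11.4-fold without numbers 5 and 6) against naive cells. Irf9 moved the same way over a smaller range, with 141 ± 17.8 CPM in reactivated TH1, 84.2 ± 14.9 CPM in TH1 effector, 123 ± 49.7 CPM in activated naive and 225 ± 18.7 CPM in naive libraries. It rose 1.68-fold between the TH1 groups (adjusted p = 0.00022).

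Among 5 sensors of foreign nucleic acid, the RNA helicases MDA5 and RIG-I went different ways on restimulation of TH1 cells. Ifih1, which encodes MDA5, had 103, 134 and 215 CPM (lowest, median, highest) in reactivated TH1 libraries and 19.2, 24.9 and 35.1 CPM in TH1 effector libraries. It had 53.8, 72.6 and 172 CPM in activated naive libraries and 56.8, 68.0 and 76.4 CPM in naive libraries. Every reactivated TH1 library was above every TH1 effector library and above every naive library. Ifih1 rose 5.45-fold in reactivated over TH1 effector cells (log2 fold change 2.45, SE 0.12, adjusted p = 1.04e-10). In activated naive against naive cells its log2 fold change was 0.39 (adjusted p = 0.0582), which was called with the replicate number as a block (0.35, adjusted p = 0.0488), with DESeq2 (adjusted p = 0.038) and without number 1, 2 or 3 (adjusted p = 0.0491, 0.0378 and 0.0334), and was -0.13 without numbers 5 and 6 (adjusted p = 0.244).

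Ddx58, which encodes RIG-I, averaged 26.3 ± 12.1 CPM in reactivated TH1, 43.1 ± 11.2 CPM in TH1 effector, 39.99 ± 23.8 CPM in activated naive and 268 ± 20.7 CPM in naive libraries. It fell 6.38-fold in TH1 effector (adjusted p = 6.78e-09) and 7.34-fold in activated naive cells (adjusted p = 2.65e-09; 11.2-fold without numbers 5 and 6) against naive cells. It fell a further 1.72-fold in reactivated against TH1 effector cells (adjusted p = 0.0101), with overlap of the libraries, and its log2 fold change there was -0.46 in the second run alone (adjusted p = 0.261). Without numbers 5 and 6 Ddx58 had a log2 fold change of -0.95 there (adjusted p = 0.00137). Against activated naive cells its log2 fold change of -0.58 (adjusted p = 0.0491) was lost without number 1, 2, 5 or 6 (adjusted p = 0.137, 0.0682, 0.0972 and 0.115) and without both 5 and 6 (-0.39, adjusted p = 0.122).

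Ddx60, a helicase tied to the RIG-I pathway, had 1.96, 8.02 and 15.7 CPM (lowest, median, highest) in reactivated TH1 libraries and 3.66, 5.28 and 10.4 CPM in TH1 effector libraries. It had 3.26, 6.39 and 30.9 CPM in activated naive libraries and 108, 119 and 140 CPM in naive libraries. Naive libraries stood apart, and the other 3 groups overlapped. Ddx60 fell 22.4-fold in TH1 effector (adjusted p = 5.85e-09) and 12.2-fold in activated naive cells (adjusted p = 1.02e-07; 25.5-fold without numbers 5 and 6) against naive cells, and was not called between the TH1 groups (log2 fold change 0.35, adjusted p = 0.46). Zbp1, a sensor of Z-form nucleic acid, averaged 70.9 ± 23.7 CPM in reactivated TH1, 105 ± 16.7 CPM in TH1 effector, 76.1 ± 47.8 CPM in activated naive and 331 ± 55.2 CPM in naive libraries. Its fall of 0.64 in log2 between the TH1 groups (adjusted p = 0.0141) was lost without number 1 or 2 (adjusted p = 0.06 and 0.0528) and in the second run alone (-0.32, adjusted p = 0.387). That log2 fold change was -0.77 without numbers 5 and 6 (adjusted p = 4.84e-05). Against activated naive cells the log2 fold change of Zbp1 was -0.04 (adjusted p = 0.89), 0.35 in the first run alone (adjusted p = 0.0113) and 0.31 without numbers 5 and 6 (adjusted p = 0.0402). Dhx58, which encodes LGP2, a regulator of both helicases, averaged 34.5 ± 15.9 CPM in reactivated TH1 and 19.5 ± 3.68 CPM in TH1 effector libraries and was not called between them (log2 fold change 0.70, adjusted p = 0.0747). It was called without number 1 or 2 (0.91 and 0.93, adjusted p = 0.0372 and 0.0407). Without numbers 5 and 6 the log2 fold change of Dhx58 there was 0.25 (adjusted p = 0.311).

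Restriction factors and enzymes act on viral particles, genomes or membranes, and Rsad2, Mx1 and Mx2 are among them. The Mx genes encode dynamin-like GTPases that trap viral nucleocapsids and lie on chromosome 16, Mx1 at 97447035 to 97462907 and Mx2 at 97535308 to 97560900. Mx1 had 30.9, 91.5 and 170 CPM (lowest, median, highest) in reactivated TH1 libraries and 4.70, 5.21 and 6.48 CPM in TH1 effector libraries. It had 0.839, 3.78 and 31.6 CPM in activated naive libraries and 10.4, 21.5 and 23.6 CPM in naive libraries. Every reactivated TH1 library was above every TH1 effector and every naive library, and activated naive libraries lay on both sides of the naive ones. Mx1 rose 16.8-fold in reactivated over TH1 effector cells (log2 fold change 4.07, SE 0.30, adjusted p = 5.17e-06) and 10.3-fold over activated naive cells (adjusted p = 3.35e-05; 27.0-fold without numbers 5 and 6). In activated naive against naive cells its log2 fold change of -1.22 (SE 0.73, adjusted p = 0.067) became a called fall with the replicate block (-1.49, adjusted p = 0.0275), with DESeq2 (adjusted p = 0.0357), without number 5 or 6 (adjusted p = 0.0215 and 0.0205) and without both (-3.19, adjusted p = 2.41e-05). C57BL/6 mice are known to carry a defective Mx1 allele, so the transcript does not stand for a working protein.

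Mx2 averaged 28.7 ± 18.7 CPM in reactivated TH1, 2.39 ± 0.926 CPM in TH1 effector, 4.96 ± 5.55 CPM in activated naive and 16.6 ± 2.30 CPM in naive libraries. It rose 10.9-fold between the TH1 groups, which did not overlap (adjusted p = 4.08e-06). Rsad2 and Cmpk2 are neighbours on chromosome 12, Rsad2 at 26442746 to 26456452 and Cmpk2 at 26469204 to 26479837. Rsad2 encodes viperin, which makes a chain-terminating nucleotide, and Cmpk2 a mitochondrial nucleotide kinase. Rsad2 had 8.66, 23.0 and 56.2 CPM (lowest, median, highest) in reactivated TH1 libraries and 0.668, 1.16 and 2.01 CPM in TH1 effector libraries. It had 4.33, 9.69 and 67.9 CPM in activated naive libraries and 14.6, 25.7 and 33.03 CPM in naive libraries. The reactivated TH1 libraries lay above all TH1 effector libraries and on both sides of the naive ones. Rsad2 rose 19.7-fold in reactivated over TH1 effector cells (log2 fold change 4.30, SE 0.30, adjusted p = 1.2e-06), the largest rise of the set in that comparison. Its log2 fold change in activated naive cells was -0.51 (SE 0.54, adjusted p = 0.343), -1.05 without number 5 (adjusted p = 0.0466) and -1.96 without numbers 5 and 6 (adjusted p = 9.13e-06). Cmpk2 averaged 24.5 ± 10.3 CPM in reactivated TH1, 4.51 ± 0.940 CPM in TH1 effector, 6.06 ± 6.91 CPM in activated naive and 38.0 ± 7.74 CPM in naive libraries, and rose 4.98-fold between the TH1 groups (adjusted p = 0.000133).

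Ifitm3 ran against the rest of the set. It encodes a membrane protein that blocks the fusion of viruses in endosomes and lies on chromosome 7 at 141009586 to 141010770. Ifitm3 had 85.8, 102 and 114 CPM (lowest, median, highest) in reactivated TH1 libraries and 93.1, 155 and 227 CPM in TH1 effector libraries. It had 3.22, 4.69 and 8.85 CPM in activated naive libraries and 1.78, 2.03 and 2.50 CPM in naive libraries. Both TH1 groups lay above both naive groups, and activated naive libraries above naive ones. Ifitm3 rose 72.8-fold in TH1 effector (log2 fold change 6.19, SE 0.20, adjusted p = 2.78e-16) and 2.54-fold in activated naive cells (adjusted p = 4.32e-05; 1.91-fold without numbers 5 and 6) against naive cells, and fell 1.48-fold in reactivated against TH1 effector cells (adjusted p = 0.00701). The difference between the 2 changes on stimulation was -1.91 in log2 (SE 0.32, adjusted p = 1.22e-05) and -1.28 without numbers 5 and 6 (adjusted p = 0.000593). Of its 50-base stretches 10% occur in another gene too, mainly Ifitm1. The direction was not particular to Ifitm3. Among the interferon-stimulated genes outside the set, Ifitm2 and Ifitm1 had the 2 largest called rises in TH1 effector against naive cells. They also had the 2 largest called differences below 0 between the changes on stimulation.

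Bst2, Adar and Isg20 varied least within groups, with pooled SDs of 0.22, 0.23 and 0.30 in log2 CPM. Bst2, or tetherin, which holds budding virus at the cell surface, averaged 88.5 ± 11.8 CPM in reactivated TH1, 71.8 ± 8.50 CPM in TH1 effector, 54.1 ± 14.4 CPM in activated naive and 71.1 ± 3.75 CPM in naive libraries. Its log2 fold change of 0.29 between the TH1 groups (adjusted p = 0.0216) was lost without number 4 or 6 (adjusted p = 0.062 and 0.0689), in the first run alone (0.08, adjusted p = 0.51), without numbers 5 and 6 (0.17, adjusted p = 0.109), with DESeq2 (adjusted p = 0.0642) and with scaling by library size only (adjusted p = 0.195). Adar, which edits adenosine in double-stranded RNA, averaged 302 ± 57.1 CPM in reactivated TH1, 137 ± 17.6 CPM in TH1 effector, 357 ± 76.9 CPM in activated naive and 347 ± 24.6 CPM in naive libraries. It rose 2.19-fold in reactivated over TH1 effector cells, with no overlap of libraries (adjusted p = 8.62e-10), and its log2 fold change in activated naive cells was 0.02 (adjusted p = 0.849) and -0.25 without numbers 5 and 6 (adjusted p = 0.00842). Against activated naive cells the log2 fold change of Adar in reactivated TH1 cells was -0.24 (adjusted p = 0.0415), a call that was lost without number 1, 2, 3 or 6 (adjusted p = 0.0701, 0.0803, 0.0672 and 0.0909). Of the exon bases of Adar 16.8% are shared with Chrnb2 on the other strand. Isg20, an RNA exonuclease, averaged 17.1 ± 1.28 CPM in reactivated TH1, 13.8 ± 3.63 CPM in TH1 effector, 28.5 ± 8.36 CPM in activated naive and 24.3 ± 3.64 CPM in naive libraries, and the difference between its changes on stimulation was 0.07 (SE 0.17, adjusted p = 0.814).

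Samd9l and Trim30a close this group. Samd9l, a growth-restraining factor that blocks poxviruses, had 12.4, 18.3 and 28.0 CPM (lowest, median, highest) in reactivated TH1 libraries and 14.6, 22.7 and 30.3 CPM in TH1 effector libraries. It had 40.8, 70.6 and 162.1 CPM in activated naive libraries and 426, 556 and 673 CPM in naive libraries. The naive, activated naive and TH1 libraries formed 3 ranges that did not overlap. Samd9l fell 23.99-fold in TH1 effector (adjusted p = 3.62e-12) and 6.81-fold in activated naive cells (adjusted p = 3.84e-09) against naive cells, and 4.39-fold in reactivated TH1 against activated naive cells (adjusted p = 3.16e-07). Without numbers 5 and 6 the last 2 falls were 9.71-fold and 3.59-fold. Between the TH1 groups its log2 fold change was -0.32 (adjusted p = 0.282) and -0.63 without numbers 5 and 6 (adjusted p = 0.0232). Trim30a, a ring-finger protein that restrains inflammatory signalling in mice, averaged 238.3 ± 86.2 CPM in reactivated TH1 and 103 ± 25.7 CPM in TH1 effector libraries and rose 2.27-fold (adjusted p = 0.000253).

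PARP9, PARP14 and DTX3L belong to the ADP-ribosylation machinery that is switched on by interferon, PARP9 being the partner of the ubiquitin ligase DTX3L. Parp14 had 107, 225 and 335 CPM (lowest, median, highest) in reactivated TH1 libraries and 111, 149 and 231 CPM in TH1 effector libraries. It had 113, 158.1 and 437 CPM in activated naive libraries and 376, 403 and 555 CPM in naive libraries. Activated naive number 5, at 437 CPM, was the one library outside the naive group that reached the naive range. Parp14 fell 2.78-fold in TH1 effector (adjusted p = 8.29e-06) and 2.11-fold in activated naive cells (adjusted p = 0.000329; 3.26-fold without numbers 5 and 6) against naive cells and was not called between the TH1 groups (log2 fold change 0.44, adjusted p = 0.0924). Parp9 averaged 107 ± 36.9 CPM in reactivated TH1, 153 ± 14.97 CPM in TH1 effector, 53.8 ± 40.7 CPM in activated naive and 181 ± 29.0 CPM in naive libraries, and Dtx3l averaged 145 ± 47.4, 200 ± 34.7, 74.1 ± 51.2 and 317 ± 45.0 CPM in the same order of groups. Between the TH1 groups their log2 fold changes were -0.58 and -0.52 (adjusted p = 0.0681 and 0.0601), and both fell without numbers 5 and 6 (-0.76 and -0.66, adjusted p = 0.00157 and 0.0013). With the replicate block Dtx3l was called (adjusted p = 0.0469), and so it was without number 4 (adjusted p = 0.0496). Without number 5 Parp9 was called (adjusted p = 0.049). Parp9 and Dtx3l share 458 exon bases on opposite strands, so their reads may be counted together.

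Sp100 and Pml encode the scaffold proteins of nuclear bodies. Sp100 had 56.4, 94.9 and 143 CPM (lowest, median, highest) in reactivated TH1 libraries and 114, 125 and 176 CPM in TH1 effector libraries. It had 44.9, 51.1 and 134 CPM in activated naive libraries and 583, 689 and 717 CPM in naive libraries. Naive libraries stood far above the other 3 groups, which overlapped. Sp100 fell 5.08-fold in TH1 effector (adjusted p = 5.14e-09) and 9.62-fold in activated naive cells (adjusted p = 4.07e-11; 14.7-fold without numbers 5 and 6) against naive cells, and its fall of 0.56 in log2 between the TH1 groups (adjusted p = 0.026) was lost without number 1, 2 or 3 (adjusted p = 0.114, 0.0918 and 0.0597) and in the second run alone (-0.23, adjusted p = 0.545). Without numbers 5 and 6 the log2 fold change of Sp100 between the TH1 groups was -0.70 (adjusted p = 0.000274). Pml did not follow Sp100, with 221 ± 53.2 CPM in reactivated TH1, 204 ± 8.72 CPM in TH1 effector, 93.9 ± 44.9 CPM in activated naive and 164.4 ± 19.8 CPM in naive libraries. It fell 1.83-fold in activated naive cells (adjusted p = 0.000416; 2.74-fold without numbers 5 and 6) and was not called in TH1 effector against naive cells (log2 fold change 0.31, adjusted p = 0.144), although every TH1 effector library was above every naive one. A fit of those 2 groups only called that rise (adjusted p = 0.000484), and so did the first run alone (adjusted p = 0.016).

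Of the other 6 members, Rtp4, a chaperone of receptors that also restricts flaviviruses in mice, fell most in TH1 effector against naive cells. It had 3.10, 7.14 and 17.5 CPM (lowest, median, highest) in reactivated TH1 libraries and 0.697, 1.69 and 4.10 CPM in TH1 effector libraries. It had 11.7, 19.6 and 94.2 CPM in activated naive libraries and 62.9, 70.6 and 98.4 CPM in naive libraries. Activated naive libraries overlapped with the naive and the reactivated TH1 libraries, and the TH1 groups overlapped with each other. Rtp4 fell 41.7-fold in TH1 effector against naive cells (adjusted p = 1.37e-09), rose 4.33-fold in reactivated over TH1 effector cells (adjusted p = 0.000404) and fell 3.97-fold in reactivated TH1 against activated naive cells (adjusted p = 0.000148; 2.93-fold without numbers 5 and 6). Of its exon bases 13.9% are shared with Gm45338 on the same strand, and 11.6% of its 50-base stretches occur in another gene. Ifi44, an interferon-induced protein gene, averaged 30.8 ± 16.1 CPM in reactivated TH1, 4.16 ± 2.52 CPM in TH1 effector, 8.46 ± 6.33 CPM in activated naive and 19.8 ± 5.24 CPM in naive libraries, and rose 7.43-fold between the TH1 groups (adjusted p = 2.98e-06). Xaf1, a promoter of cell death, rose 3.21-fold (adjusted p = 0.000269) and Tor3a, a torsin-family ATPase, rose 1.80-fold (adjusted p = 0.000856) in the same comparison. Ifi35, a partner of the transcription regulator NMI, and Ifi27l2a, a small membrane protein gene, were not called there (log2 fold changes 0.27 and 0.07, adjusted p = 0.0889 and 0.796). The fall of Ifi35 in TH1 effector against naive cells (log2 fold change -0.31, adjusted p = 0.0483) was lost without any 1 of numbers 1, 2, 3, 4 and 6 (adjusted p = 0.0577 to 0.118).

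Levels of different members can be set side by side as CPM per kilobase of exon. On that scale Ifi27l2a led in naive cells with 327, followed by Samd9l with 102, Zbp1 with 93.7 and Sp100 with 88.0, and the lowest were Ifitm3 with 3.06 and Ifi44 with 3.24. In TH1 effector cells Ifitm3 led with 224, followed by Ifi27l2a with 163.8 and Bst2 with 79.5, and the lowest were Oasl2 with 0.169, Oas2 with 0.174 and Oasl1 with 0.184. In reactivated TH1 cells Ifi27l2a with 173 and Ifitm3 with 149 led, followed by Bst2 with 98.1 and Isg15 with 61.6. Over numbers 1 to 4 Isg15 had 47.3 there, just below Trim30a with 47.6. In activated naive cells Ifi27l2a led with 103, followed by Bst2 with 59.9 and Isg15 with 59.1. Over numbers 1 to 4 of the activated naive libraries Ifi27l2a had 62.2 and Bst2 50.3, and Isg15 with 26.2 stood below Adar with 38.0 and Ifi35 with 29.8.

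Transcripts of the ligands themselves were all but absent. Over 20 genes of type I and type III interferons, 0 to 8 counts were found per library. Ifnb1, which encodes interferon beta, had 1 to 3 counts in each reactivated TH1 library, 2 counts in activated naive number 4 and 0 in the other 17 libraries. A count of 0 over the 6 libraries of a group allows up to 0.0177 CPM in TH1 effector and 0.0205 CPM in naive cells (3 counts, counting error only). Libraries of the macrophages alone were not analysed here. Ifng, the gene of interferon gamma, ranged from 9168 to 19064 CPM in reactivated TH1 libraries and from 91.2 to 264 CPM in TH1 effector libraries, with at most 0.833 CPM in activated naive and 0.249 CPM in naive libraries.

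The receptor chains and their kinases stood highest in naive cells. Ifnar1 averaged 103 ± 10.2 CPM in reactivated TH1, 114 ± 23.5 CPM in TH1 effector, 126 ± 11.6 CPM in activated naive and 281 ± 18.3 CPM in naive libraries. Ifnar2 averaged 26.1 ± 1.57 CPM in reactivated TH1, 46.2 ± 1.75 CPM in TH1 effector, 26.9 ± 1.52 CPM in activated naive and 69.4 ± 3.57 CPM in naive libraries, and fell by 0.82 in log2 in reactivated against TH1 effector cells (adjusted p = 1.32e-13). Jak1 averaged 255 ± 17.8 CPM in reactivated TH1, 390 ± 25.2 CPM in TH1 effector, 400 ± 18.3 CPM in activated naive and 1193 ± 59.2 CPM in naive libraries. Tyk2 averaged 96.5 ± 10.6 CPM in reactivated TH1, 81.4 ± 6.81 CPM in TH1 effector, 58.7 ± 3.05 CPM in activated naive and 141 ± 10.3 CPM in naive libraries. Of 21 tested genes of receptor signalling and its brakes, 9 rose and 8 fell between the TH1 groups, near the shares of all genes (39.9% and 39.8%), and 5 rose and 8 fell without numbers 5 and 6. In TH1 effector against naive cells 6 of the 21 rose and 11 fell (44.6% and 40.3% of all genes), and in activated naive against naive cells 7 rose and 11 fell (41.3% and 40.5% of all genes), or 6 and 11 without numbers 5 and 6. Stat2, which encodes a part of ISGF3, averaged 182 ± 59.3 CPM in reactivated TH1 and 119 ± 25.5 CPM in TH1 effector libraries and rose by 0.58 in log2 (adjusted p = 0.0427). Socs1, an inhibitor of JAK kinases, averaged 40.4 ± 5.18 CPM in reactivated TH1 and 89.3 ± 9.46 CPM in TH1 effector libraries (log2 fold change -1.15, adjusted p = 6.65e-09). Socs3, another inhibitor of this family, averaged 15.7 ± 1.18 CPM in reactivated TH1 and 108 ± 26.8 CPM in TH1 effector libraries (log2 fold change -2.76, adjusted p = 2.15e-14), and 4.66 ± 1.26 CPM in activated naive and 320 ± 56.2 CPM in naive libraries (-6.12, adjusted p = 4.84e-20).

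Among 24 tested sensors and adaptors outside the set, 10 rose and 11 fell between the TH1 groups, near the shares of all genes (39.9% and 39.8%). Tmem173, which encodes STING, averaged 87.4 CPM in reactivated TH1 and 188 CPM in TH1 effector libraries (log2 fold change -1.11, adjusted p = 2.32e-11), and 18.3 CPM in activated naive and 175 CPM in naive libraries (-3.26, adjusted p = 1.62e-20). Tlr7, a receptor for single-stranded RNA in endosomes, averaged 12.9 ± 5.91 CPM in reactivated TH1 and 2.62 ± 0.707 CPM in TH1 effector libraries (log2 fold change 2.31, adjusted p = 3.63e-06), and 1.72 ± 1.23 CPM in activated naive and 22.6 ± 4.77 CPM in naive libraries. Of 57 tested interferon-stimulated genes outside the set, 21 rose and 25 fell between the TH1 groups, again near those shares, with a median log2 fold change of -0.15, or -0.35 without numbers 5 and 6. In activated naive against naive cells 5 of the 57 rose and 45 fell (41.3% and 40.5% of all genes), with a median of -1.62, and 4 rose and 49 fell without numbers 5 and 6, with a median of -1.85. The difference between the 2 changes on stimulation was called above 0 for 46 of the 57 and below 0 for 5 (34.3% and 33.7% of all genes), and for 47 and 4 without numbers 5 and 6.

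Most genes mainly directed by interferon gamma fell on restimulation of TH1 cells. Of 30 such genes 3 rose and 25 fell in reactivated against TH1 effector cells (39.9% and 39.8% of all genes), with a median log2 fold change of -1.10. Gbp11, a guanylate-binding GTPase of cell-autonomous defence, averaged 5.22 ± 2.35 CPM in reactivated TH1 and 108 ± 20.8 CPM in TH1 effector libraries (log2 fold change -4.45, adjusted p = 1.02e-11). Its relative Gbp8 averaged 18.0 ± 7.84 CPM in reactivated TH1 and 160.8 ± 36.3 CPM in TH1 effector libraries (log2 fold change -3.22, adjusted p = 3.87e-13). Cxcl9, a chemokine gene that macrophages also use, was among the 3 that rose, with 18.8 ± 3.04 CPM in reactivated TH1 and 0.169 ± 0.144 CPM in TH1 effector libraries. Macrophage Lyz2 moved the same way, as given above, and its part in the Cxcl9 level was not tested.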

How the data were processed

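The deposited files hold raw read counts per gene, 1 table for each of the 24 libraries, per the file contents. STAR, HTSeq, DESeq2 and the mm10 build are named per the submitters' processing notes, with versions, parameters, annotation and strand setting not given in the sources used here. The library kit keeps strand per the labels' protocols, but the counting strand is not known, so overlapping genes on opposite strands may share reads. The authors' 5 summary lines per file stayed out of totals and tests; no_feature lines took 13.2 to 24.5%, ambiguous lines 0.706 to 1.25% and not-unique lines 5.41 to 7.83%. Runs were told apart by the flow cell named in each deposited file.

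Genes with too few counts were left out with edgeR's filterByExpr, which kept 12584 of 23420 genes. Library sizes were scaled by TMM (factors 0.9239 to 1.0722), and CPM was computed from them, with a prior count of 2 in log2 CPM. The test was edgeR's quasi-likelihood test (edgeR 4.0.16, limma 3.58.1, R 4.3.3) on all 24 libraries with terms for group and run, and p-values were adjusted by the Benjamini-Hochberg method over all genes tested. DESeq2 1.42.0 was an alternative. The script was tested on simulated data.

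Libraries with the same number deviated together from their group means in all 36 pairs of groups and numbers (correlations 0.106 to 0.43 over genes). Run differences were left in these values and unlike numbers were not compared, so the correlations cannot show pairing by number. A fit with the number as a block was an alternative. The p-values of the main test do not use a pairing by number. Between 2 libraries of a group, chi-square over its degrees of freedom was 8.9 or more, so no library was a repeat of another. The other alternatives were no run term, library size only, no filter, a 10 CPM filter and the compared groups only. Each run alone, each number left out in turn, and numbers 5 and 6 left out together were used too. For group levels and for the lists outside the members, leaving out numbers 5 and 6 was chosen after seeing the data. For the members it was set with earlier results known, in which these numbers were high for an interferon list. Adjusted p-values without these numbers are therefore descriptive only. Intervals and floors cover counting error only.

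The members and the lists were chosen with earlier results of these data known. Genes given in full were the 3 largest called changes in each direction per comparison at 10 CPM or more, the 3 with the highest mean CPM, those called against the majority, and the 3 most and 3 least variable; other members are given as members of their role. Isg15, Irf7 and Ifih1 met none of these rules and were also given in full, as members of their role. Of the other lists, the 2 largest called changes per list and direction and a few receptor and signalling genes were eligible. Gene positions are from GENCODE (GRCm38), and promoters from RefSeq (GRCm38.p6). Results for 1 signalling gene are not reported here.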

Additional observations from a re-analysis of the deposited data

Results flagged for a closer look

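In 9 of 80 groups of 6 libraries checked, 1 library had a gap to the nearest other that was large against the group's range. All 9 were naive groups. Independent checks would give about 1 in 20 by chance. These checks used members that move together in the same 24 libraries, and most flags fell in naive number 5. The 9 can therefore not be set against that rate. In naive number 5 the low values were 5.719 log2 CPM for Ifit3 (others 6.354 to 6.711), 4.661 for Oasl1 (5.093 to 5.263), 3.876 for Rsad2 (4.618 to 5.049), 3.392 for Mx1 (4.136 to 4.563), 3.618 for Mx2 (3.998 to 4.184) and 8.232 for Adar (8.416 to 8.516). In naive number 4 the high values were 8.788 for Zbp1 (8.202 to 8.328) and 9.117 for Parp14 (8.556 to 8.711). In naive number 3 Bst2 was low at 5.994 (6.164 to 6.21).

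The change on stimulation differed between TH1 and naive cells by the interaction test of edgeR for 38 members above 0 and 1 below. In log2 the difference was 5.583 for Mx2, 5.553 for Ifit3, 5.3394 for Oasl2 and -1.9107 for Ifitm3.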

How the results depend on the processing

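The interaction counts and medians moved under none of the alternatives run beyond 1.5 times or the spread. In activated naive against naive cells the count of members higher, 1 with all libraries, was 2 with the replicate block, 2 with DESeq2, 3 in the second run and 1 to 2 with 1 number left out. The count lower, 31, was 16 in the second run, and the median of -1.63 was -2.64 in the first run, -0.78 in the second and -2.63 without numbers 5 and 6. In TH1 effector against naive cells the count higher, 1, was 2 with the compared groups only and 2 in the first run. In reactivated TH1 against TH1 effector cells the count lower, 4, was 2 with no run term, 8 in the first run, 1 in the second, 8 without numbers 5 and 6 and 2 to 5 with 1 number left out. In reactivated TH1 against activated naive cells the count higher, 18, was 10 in the second run and 29 without numbers 5 and 6, and the median of 0.39 was 0.84 in the first run, 0.17 in the second and 0.85 without numbers 5 and 6. The log2 fold change of Adar in activated naive against naive cells turned to -0.25 without numbers 5 and 6, and that of Zbp1 in reactivated TH1 against activated naive cells to 0.35 in the first run and 0.31 without numbers 5 and 6. The cause was not tested. The replicate block changed the calls of Mx1, Ifih1 and Dtx3l given above and no other call of a member. Of the gene values checked under alternatives 1422 kept direction and side of the threshold, 55 lost the call, 21 gained it and 3 reversed. Scaling by library size only moved the median of all genes to -0.14 in activated naive against naive and to -0.12 in reactivated TH1 against TH1 effector cells. Depth limits the genes near 1 CPM, among them Oas2 and Oasl1 in TH1 effector cells.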

Other observations

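In reactivated TH1 libraries numbers 1 to 6, Ifng was at 19064, 15555, 9827, 14401, 9168 and 9685 CPM, and the mean log2 CPM over the 40 interferon genes was 4.50, 4.83, 5.35, 5.36, 6.02 and 5.78. The part of interferon gamma in the interferon gene levels was not tested.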
